A study of Mus musculus with 6 samples.

Results

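Trbv5, named TRBV5 in the clone tables, was followed through the TCR-β repertoires of CD4+ T cells. It was chosen by its high usage in these libraries, so that its level of usage is a description with no test, and only the difference between the organs was tested. A clone belonged to Trbv5 where TRBV5 was the best-scoring V gene, and clones with 1 CDR3 at the nucleotide level and the same V and J genes formed a clonotype. Among coding clonotypes, those with an open reading frame through the CDR3, 30811 of 330061 in 6 libraries used Trbv5. Kidneys 1, 2 and 3, numbered by mouse, held 45, 72 and 31 of these and spleens 1, 2 and 3 held 10441, 13139 and 7083. The libraries came from 3 C57BL/6 wildtype mice, all females by the study's methods. In each mouse a clip closed the right ureter reversibly (RUUO) on day 0 and was removed by day 6, the left ureter was tied (UUO) on day 17, and the left UUO kidney and the spleen were taken on day 22. CD4+ T cells were enriched in 2 bead steps from kidney and in 1 from spleen, then sorted, and mice without the first injury were not analysed here. Only Tcrb transcripts were amplified, so that the CD4+ label could not be checked against other genes.

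A TCR-β chain is made by joining 1 V, 1 D and 1 J gene segment, with bases trimmed from the ends and others added without a template. The join encodes the CDR3 loop, which contacts the peptide presented by an MHC molecule, whereas the loops encoded by V alone mostly contact the MHC molecule itself. Trbv5 encodes Vβ1 and is annotated as a V segment with the synonym Tcrb-V1 at chr6:41062359-41062803 (RefSeq, GRCm38.p6). On the same chromosome lie Trbd1 at 41533201, the Trbj1 cluster from Trbj1-1 at 41533864 onward, Trbd2 at 41542163 and the Trbj2 cluster, with Trbj2-7 at 41543810 to 41543856. Trbd1 can join either cluster, and Trbd2 only the second.

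The bases that Trbv5 brings to the CDR3 were read from spleen clonotypes in which no V base had been lost. This end is shown because the junction results below rest on it, and below it stands the shortened end left after 4 bases were lost. The last 4 bases of the first are missing from the other.
Trbv5 end, no base lost: tgtgccagcagccaaga
Trbv5 end, 4 bases lost: tgtgccagcagcc
Of 14387 spleen clonotypes with no V base lost, 13523 began with the first sequence. In 5532 of the 14387 the V part ran on past the germline end by palindromic bases, and of the 8855 without them 8166 carried exactly the first sequence. Palindromic bases were counted in the V part. Among spleen clonotypes with 4 V bases lost, 6186 of 6205 carried the second sequence. Of the 22 Trbv genes with at least 100 clonotypes in each spleen, 1 other gene, Trbv2, had the same 17 bases. The nearest after it, Trbv3 and Trbv4, shared the first 12 bases.

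The largest Trbv5 clonotypes of the kidneys and of the spleens are shown to let the junctions be read. Letters in capitals lie between the V part and the J part and hold D bases and added bases.
Kidney 1, place 1 (Trbj2-1): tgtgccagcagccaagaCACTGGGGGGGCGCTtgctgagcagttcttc
Kidney 1, place 2 (Trbj2-5): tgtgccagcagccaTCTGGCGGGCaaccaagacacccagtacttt
Kidney 1, place 3 (Trbj1-4): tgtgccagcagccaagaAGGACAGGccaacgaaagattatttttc
Kidney 2, place 1 (Trbj2-7): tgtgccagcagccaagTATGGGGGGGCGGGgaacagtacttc
Kidney 2, place 2, and spleen 2, place 1 (Trbj1-3): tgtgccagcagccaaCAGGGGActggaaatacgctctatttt
Kidney 3, place 1 (Trbj1-1): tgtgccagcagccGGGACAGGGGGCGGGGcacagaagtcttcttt
Kidney 3, tied second (Trbj1-5): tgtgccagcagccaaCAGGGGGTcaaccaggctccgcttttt
Kidney 3, tied second (Trbj1-1): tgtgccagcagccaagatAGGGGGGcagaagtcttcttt
Spleen 1, first (Trbj2-1): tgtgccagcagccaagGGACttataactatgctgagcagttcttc
Spleen 3, first (Trbj1-1): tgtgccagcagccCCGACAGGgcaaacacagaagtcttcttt
The first kidney 1 clonotype held 17 of the 82 Trbv5 UMIs there, and with 64 UMIs it was the second largest Trbv5 clonotype of spleen 1. The first kidney 2 clonotype held 16 of 112 Trbv5 UMIs and 8 UMIs in spleen 2. Its companion in the list held 7 UMIs in the kidney, 73 UMIs in spleen 2, where it was the largest Trbv5 clonotype, and 3 UMIs in spleen 1. Kidney 3 had no large Trbv5 clonotype, the first holding 4 of 44 UMIs and 5 UMIs in spleen 3. The next 2 in kidney 3 held 3 UMIs each and were not seen in spleen 3 but in spleen 2, with 4 UMIs and 1 UMI. Of these 8 kidney clonotypes, 6 were thus found in the spleen of their own mouse. The largest clonotype of spleen 1 held 73 UMIs there and 1 UMI in kidney 1 and in spleen 2, and the largest of spleen 3 held 16 UMIs and was seen in no other library.

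The 6 libraries differed in depth. The kidneys held 693 to 1248 coding UMIs and the spleens 97735 to 224811, where a UMI is a random tag that marks each mRNA molecule before PCR. Each UMI was read 467 to 793 times in the kidneys and 8.53 to 21.2 times in the spleens, and the smallest clonotype of a kidney held 16 to 27 reads against 1 in each spleen. Within a library every CDR3 nucleotide sequence was listed once, with 0 repeats in all 6 libraries, so that cells with an identical CDR3 but different V genes stand under a single V gene.

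Trbv5 held 9.77%, 9.60% and 9.17% of the coding UMIs in spleens 1, 2 and 3. The mean was 9.51% ± 0.311 (SD, n = 3), the third highest of 24 Trbv genes. The levels in the spleens were close to each other. Trbv13-2 stood above it, with 11.2% ± 0.507 (SD, n = 3) and no overlap between spleens, and Trbv13-3 below it, with 9.30% ± 0.337 (SD, n = 3), which was above Trbv5 in spleen 3 and did not differ from Trbv5 beyond their spread. In the kidneys Trbv5 held 10.6%, 8.97% and 6.35% of the UMIs of mice 1, 2 and 3, with exact 95% binomial intervals of 8.53 to 12.996%, 7.45 to 10.7% and 4.65 to 8.43%. The kidney of mouse 3 lay below all spleens and the kidney of mouse 1 above them. These intervals cover counting error only, and fewer cells with Trbv5 and less Tcrb mRNA per cell cannot be told apart.

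**Figure D1:**
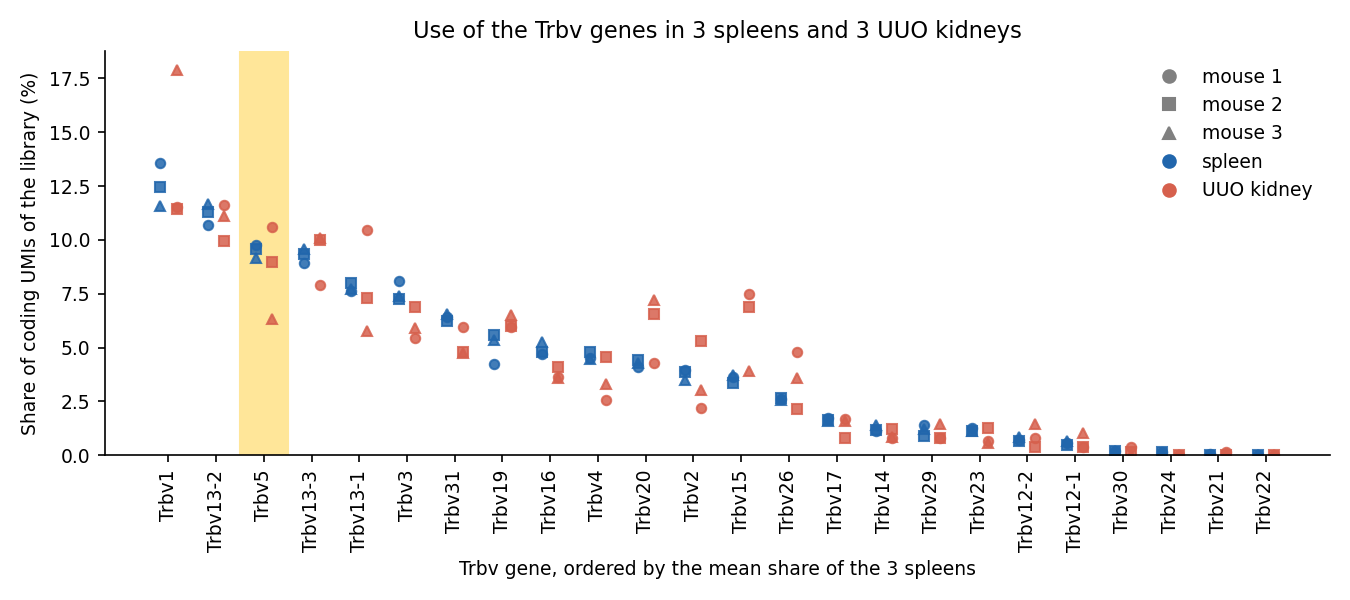
Share of coding UMIs (y axis, %) of each of 24 Trbv genes (x axis) in the 3 spleens (blue) and 3 UUO kidneys (red), 1 symbol per mouse, with Trbv5 shaded. The 3 spleen values of Trbv5 lie between 9.17% and 9.77%, and its kidney values spread from 6.35% to 10.6%.

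The kidneys did not differ detectably from the spleens in Trbv5 usage. The log2 fold change of kidney over spleen was -0.13 ± 0.16 (SE, n = 3 against 3, 95% interval -0.44 to 0.18), with an adjusted p of 0.774 over 24 Trbv genes in edgeR's quasi-likelihood test. This interval does not show that the levels are alike. The fit left out the pairing of the organs within mice. With the mouse as a block Trbv5 was at -0.15 ± 0.20 (SE, adjusted p = 0.919, edgeR). Of the 24 Trbv genes, 1 was called (4.17%), Trbv15, which was higher in the kidney (log2 fold change 0.81, adjusted p = 0.000866), and with the mouse as a block edgeR called none (Trbv15, adjusted p = 0.0659), with 1 gene at an unadjusted p under 0.05. Without mouse 1 or without mouse 2 Trbv15 was not called either, at 0.69 and 0.65. On distinct clonotypes it was 0.17 (adjusted p = 0.671, edgeR), and with at least 27 reads per clonotype 0.28 (adjusted p = 0.451, edgeR). Among the alternative settings, 6 kept the Trbv15 call and 6 did not. The pairs of organs within mice gave no common direction for Trbv5, with the kidney higher in 1 mouse and lower in 2. Counted as distinct clonotypes, Trbv5 made up 9.51%, 9.36% and 9.07% of the spleens and 9.32%, 9.47% and 6.55% of the kidneys.

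The J genes joined to Trbv5 were set against those joined to all other Trbv genes of the same spleens, counting each coding clonotype once. Of 12 functional Trbj genes, 8 differed (66.7%) in edgeR's quasi-likelihood test with the mouse as a block, 4 lower (33.3%) and 4 higher (33.3%) with Trbv5. With so many clonotypes small differences were called, so that their size is given. Trbj1-2 stood apart. It was joined to 2.74%, 3.24% and 2.81% of Trbv5 clonotypes in spleens 1, 2 and 3, and to 5.65%, 5.81% and 5.21% of the other clonotypes. The groups did not overlap, which held for each of the 8 genes called. The log2 fold change of Trbj1-2 was -0.92 ± 0.08 (SE, n = 3, adjusted p = 8.97e-11). Among the 22 Trbv genes only Trbv14 and Trbv17 had a lower mean Trbj1-2 share, 2.58% and 2.89%.

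The other differences were smaller. Trbj1-3 fell by 0.34 on the log2 scale (4.47% against 5.67% of clonotypes), Trbj2-4 fell by 0.31 (7.62% against 9.49%) and Trbj2-1 fell by 0.17 (8.35% against 9.43%). Trbj1-4 was higher by 0.27 (8.55% against 7.03%, adjusted p = 5.1e-05), Trbj2-3 by 0.21, Trbj2-5 by 0.21 and Trbj1-1 by 0.11 (adjusted p = 0.00463). Trbj1-1 was not called without mouse 2 (0.12, adjusted p = 0.0763) or with DESeq2. Trbj1-5 (0.12), Trbj1-6 (0.10), Trbj2-2 (0.01) and Trbj2-7 (0.03) did not pass the test, although Trbj1-5 (0.35) and Trbj1-6 (0.27) did among clonotypes with at least 27 reads. Trbj2-7 was the most common partner in both sets, with 17.3% ± 0.227 of Trbv5 clonotypes and 17.0% ± 0.332 of the others (SD, n = 3). The gene with the J profile most like that of Trbv5 was Trbv13-1, which would need 6.75% of its clonotypes (mean of 3 spleens) moved to other J genes to match it, followed by Trbv29 (7.996%) and Trbv16 (8.02%).

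A join without an open reading frame cannot make a protein, so that a cell is not selected on such a chain. Whether a non-coding clonotype was such a join or a read error of a coding chain was not tested, and neither was selection. The spleens held 699, 955 and 398 non-coding Trbv5 clonotypes. In them Trbj1-2 was joined to 5.72%, 6.91% and 6.78% of the Trbv5 clonotypes and to 6.63%, 6.94% and 6.32% of the other Trbv clonotypes, and these ranges overlapped. The log2 fold change was -0.05 ± 0.12 (SE, n = 3, adjusted p = 0.884, edgeR), with a 95% interval of -0.36 to 0.26. Only Trbj2-1 was called among non-coding clonotypes (1 of 12, 8.33%), lower by 0.30 on the log2 scale (adjusted p = 0.0401), and DESeq2 called none there, with 2 genes at an unadjusted p under 0.05. With any mouse left out it was not called, with adjusted p of 0.255, 0.897 and 0.101 without mice 1, 2 and 3.

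The difference between coding and non-coding clonotypes was itself tested with an interaction term, a comparison added after the data were seen. For Trbj1-2 the coding difference lay 0.87 log2 units below the non-coding difference (interaction -0.87 ± 0.17, SE, adjusted p = 8.45e-05, edgeR). Of 12 Trbj genes 3 were called (25%). The other two were Trbj1-3, with an interaction of -0.47 ± 0.17 (adjusted p = 0.0347), and Trbj2-4, with -0.39 ± 0.12 (adjusted p = 0.0106). Trbj1-2 remained below an adjusted p of 0.05 when any mouse was left out, whereas Trbj1-3 was not called without mouse 1, 2 or 3 (adjusted p = 0.0560, 0.189 and 0.102, edgeR) and Trbj2-4 was not called without mouse 1 or 2 (adjusted p = 0.123 and 0.189). Among coding Trbv5 clonotypes, those with no V base lost were joined to Trbj1-2 in 3.36%, 4.18% and 3.67% of cases and those that had lost at least 1 base in 2.20%, 2.40% and 2.02%, so that the share was lower with trimming in every spleen. Among non-coding Trbv5 clonotypes the same shares were 6.38%, 6.05% and 8.86% with no base lost and 5.28%, 7.56% and 5.42% with at least 1 lost, with the opposite order in spleen 2.

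**Figure D2:**
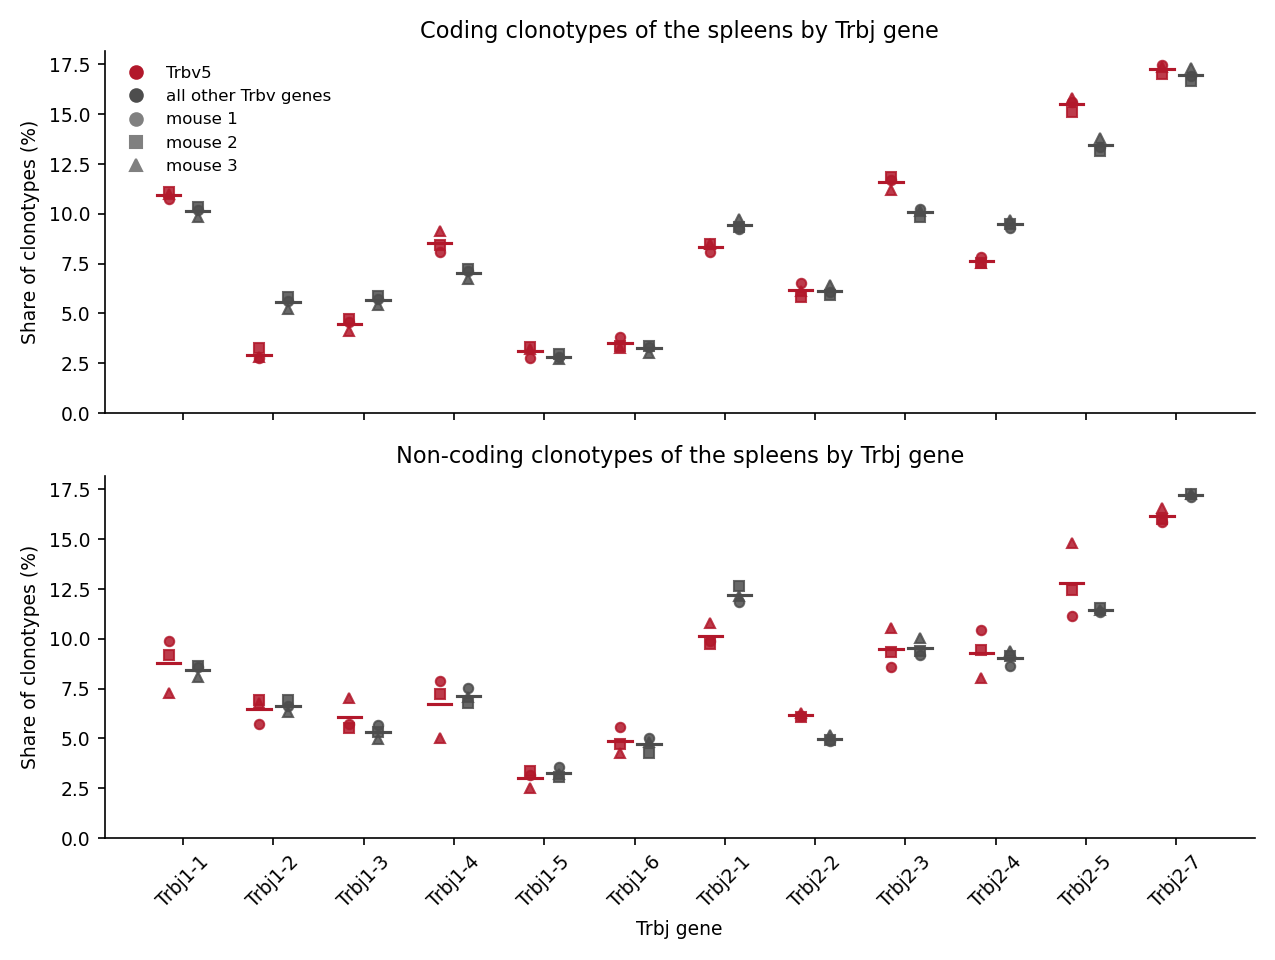
Share of spleen clonotypes (y axis, %) joined to each of 12 Trbj genes (x axis), for Trbv5 (red) and all other Trbv genes (grey), with coding clonotypes above and non-coding ones below. Symbols are mice and bars are means of 3 spleens. Trbj1-2 is separated in coding clonotypes (2.93% against 5.56%) and overlaps in non-coding ones (6.47% against 6.63%).

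CDR3 loops made with Trbv5 were the longest. The mean length was 14.5 amino acids in each of spleens 1, 2 and 3, against 13.8 for the other Trbv clonotypes of each. The difference was 0.716 ± 0.012 amino acids (SE, n = 3, 95% interval 0.683 to 0.748) with an adjusted p of 9.49e-06 in limma over 22 Trbv genes. Since 21 of the 22 genes were called (95.5%), a call says little, and rank and size tell more. Trbv5 ranked first of 22 in every spleen, with Trbv2 next at 0.544 ± 0.010 (SE). The most common length was 15 amino acids with Trbv5, at 31.3%, 31.9% and 31.9% of clonotypes, and 14 amino acids with the others, at 31.4%, 31.3% and 31.2%.

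Most of the added length lay in the V part. Trbv5 clonotypes had lost 1.59, 1.56 and 1.56 germline V bases in spleens 1, 2 and 3, and the others 2.51, 2.51 and 2.52. The difference was -0.939 ± 0.016 bases (SE, n = 3, adjusted p = 7.39e-06, limma), with 20 of 22 genes called (90.9%). It was present among non-coding clonotypes too, at -0.784 ± 0.083 bases (SE, adjusted p = 0.000359, limma). The V part kept in the CDR3 was longer by 1.92 ± 0.026 bases (SE, adjusted p = 5.4e-08, limma, 19 of 22 genes called, 86.4%), and the J part differed by -0.0018 ± 0.028 bases (SD, n = 3). The difference in V loss was thus smaller than that in the V part. Germline ends also differed in length, with 17 bases for Trbv5, Trbv2 and Trbv3, 16 for Trbv13-2, 14 for Trbv20 and 13 for Trbv31. Palindromic bases add to the V part as well. How much each contributed was not tested. Between V and J stood 9.20, 9.13 and 9.01 bases with Trbv5 and 8.87, 8.89 and 8.90 with the others, a difference of 0.225 ± 0.052 bases (SE, adjusted p = 0.0172, limma, 18 of 22 genes called, 81.8%). That last difference was not called without mouse 1 (0.172, adjusted p = 0.12) or among clonotypes with at least 2 UMIs (0.167, adjusted p = 0.204).

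V loss with Trbv5 had 2 peaks. No base was lost in 46.1%, 47.1% and 47.6% of Trbv5 clonotypes of spleens 1, 2 and 3, and 4 bases were lost in 20.7%, 20.0% and 20.1%, whereas 3 bases were lost in 6.26%, 6.23% and 6.68%. The other Trbv clonotypes had no base lost in 25.3%, 25.2% and 25.2% and 4 bases lost in 12.2%, 12.4% and 12.4%. The 2 Trbv5 ends printed above are the ends most common in these 2 peaks, and the first peak also holds the clonotypes with palindromic bases after the germline end. Added bases that happen to match the germline are read as kept V bases, so that the loss is a lower limit. Position 5 of the CDR3 was glutamine, as the untrimmed end encodes, in 69.8%, 70.9% and 70.8% of Trbv5 clonotypes, and position 6 was aspartate or glutamate in 49.9%, 50.8% and 51.5% of them against 17.5%, 17.3% and 17.2% of the others.

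**Figure D3:**
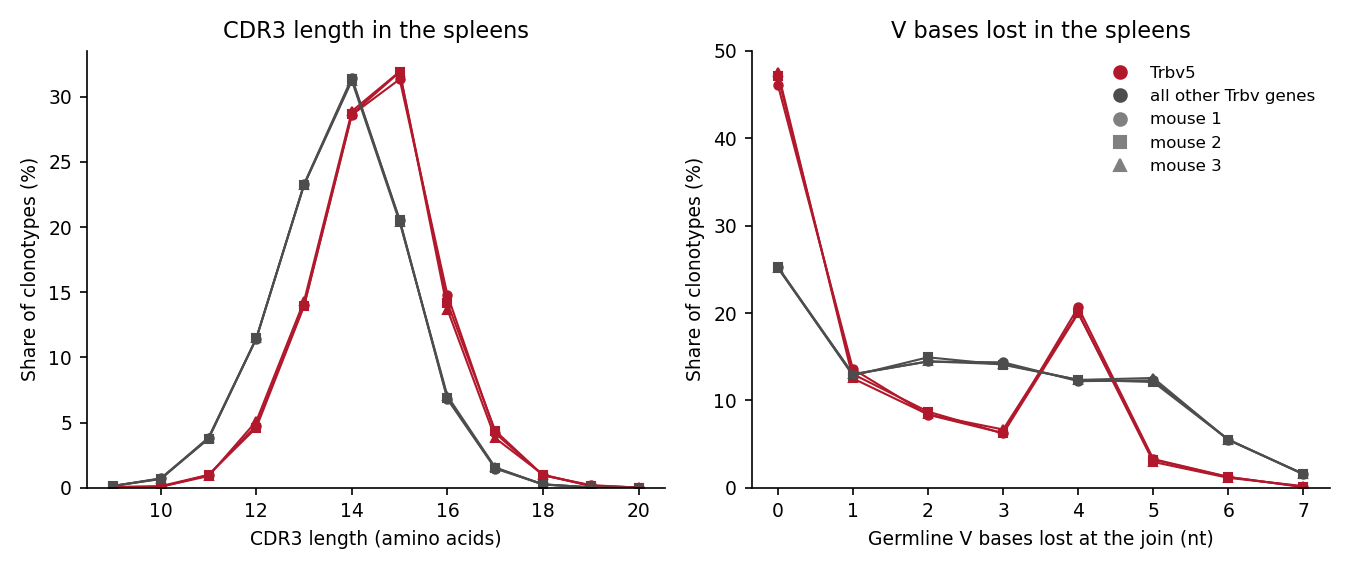
Share of spleen clonotypes (y axes, %) by CDR3 length in amino acids (left) and by germline V bases lost (right), for Trbv5 (red) and all other Trbv genes (grey), 1 line per mouse. The Trbv5 lengths are shifted to the right, with a peak at 15 against 14, and V loss with Trbv5 has peaks at 0 and 4 bases.

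**Figure D4:**
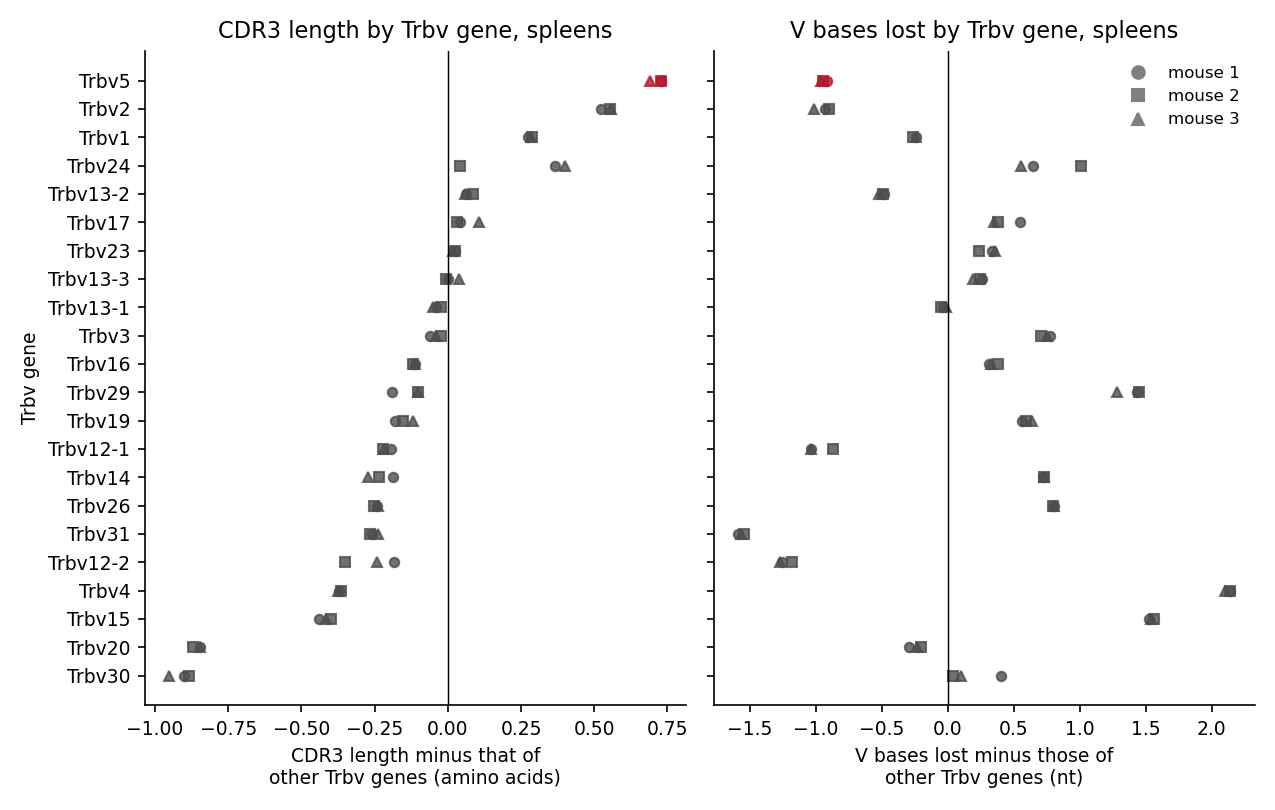
Mean CDR3 length (left, amino acids) and mean V bases lost (right, nt) of each of 22 Trbv genes (y axis) minus the mean of all other Trbv clonotypes of the same spleen, 1 symbol per mouse. Trbv5 (red) has the largest length difference, 0.716 on average, and Trbv2 lies next to it in both panels.

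Trbv2 was set beside Trbv5 because both bring the same 17 bases to the CDR3, a pair chosen after these values were seen. The 2 genes had lost almost the same number of V bases, with Trbv5 minus Trbv2 at 0.055 ± 0.049 bases (SD, n = 3), and their CDR3 lengths differed by 0.128 ± 0.034 amino acids (SD, n = 3). They differed in the 4-base peak, which held 20.2% of Trbv5 and 13.1% of Trbv2 clonotypes on average. J pairing also differed. Trbj1-2 was joined to 7.40%, 7.81% and 6.31% of Trbv2 clonotypes, above the 2.74% to 3.24% of Trbv5 in every spleen (log2 fold change of Trbv5 over Trbv2 -1.30 ± 0.09, SE, n = 3, adjusted p = 2.09e-12, edgeR, with 9 of 12 Trbj genes called, 75%). Without mouse 2 the count was 5, and Trbj1-2 was called whichever mouse was left out. Among non-coding clonotypes the Trbj1-2 log2 fold change was -0.36 ± 0.31 (SE, adjusted p = 0.777), with 124 to 206 Trbv2 clonotypes per spleen, and the difference between the coding and non-coding values was not tested for this pair.

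Sharing between mice was counted for identical clonotypes. Spleens 1 and 2 shared 710 Trbv5 clonotypes, spleens 1 and 3 shared 481 and spleens 2 and 3 shared 553. Of the Trbv5 clonotypes of spleens 1, 2 and 3, 9.78%, 8.32% and 12.2% were found in at least 1 other spleen, against 7.49%, 6.42% and 8.61% of the other Trbv clonotypes. The excess was 2.59 ± 0.889 percentage points (SD, n = 3) and was present in every spleen. With 1 mouse left out it was 1.27 to 1.68 (1.55, 1.68 and 1.27 without mice 1, 2 and 3), and 4.59 by amino acid CDR3. The rank of Trbv5 among 22 Trbv genes was 3, 3 and 2. A match needs the same V gene, so that it is likelier for a gene with many clonotypes, and Trbv5 was chosen by its high usage. How far the number of clonotypes per gene sets the excess and the rank was not tested. With 3 spleens that share clonotypes pairwise no test was made. Shared Trbv5 clonotypes had 6.63, 6.49 and 6.26 bases between V and J, against 9.48, 9.37 and 9.39 in those found in 1 spleen, and no V base was lost in 59.5%, 62.1% and 61.6% of them against 44.7%, 45.8% and 45.7%. They were also larger, with 2.20, 2.46 and 1.59 UMIs per clonotype against 1.42, 1.57 and 1.22. Shared clonotypes of the other Trbv genes were not split in this way, so that these traits are not shown to be particular to Trbv5.

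All 3 spleens held 170 Trbv5 clonotypes in common, 1 of which was also seen in a kidney. Their mean was 5.15 bases between V and J, and 71.8% of them had lost no V base. The 5 with the highest lowest share over the spleens are shown, since they are the Trbv5 sequences most evenly present in the mice, with capitals as above.
All spleens, 1 (Trbj1-3): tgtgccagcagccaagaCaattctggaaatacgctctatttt
All spleens, 2 (Trbj1-3): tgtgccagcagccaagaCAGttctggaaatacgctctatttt
All spleens, 3 (Trbj2-5): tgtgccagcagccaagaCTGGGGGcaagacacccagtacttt
All spleens, 4 (Trbj1-1): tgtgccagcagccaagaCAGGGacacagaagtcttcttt
All spleens, 5 (Trbj2-5): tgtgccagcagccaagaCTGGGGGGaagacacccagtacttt
All 5 keep the full Trbv5 end and have 1 to 8 bases between V and J. The first held 14, 27 and 7 UMIs in spleens 1, 2 and 3, where 27 was the highest count of any of the 170 clonotypes in a spleen. The second held 10, 12 and 6 UMIs, and the next in the list 11, 12 and 8 UMIs. None of the 5 was seen in a kidney.

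The V gene given to a CDR3 found in 2 mice often differed between their spleens. Of the 10441 Trbv5 clonotypes of spleen 1, 455 had a CDR3 and J gene that stood under another Trbv gene in spleen 2, 246 of them under Trbv2, beside the 710 that stood under Trbv5. Over the 6 ordered pairs of spleens, another Trbv gene was given to 35.9% to 39.6% of the Trbv5 CDR3s found again, against 33.0% to 33.7% for the other Trbv clonotypes. Between the kidney and the spleen of 1 mouse this was rare, with another Trbv gene for 3.57%, 9.76% and 0% of the Trbv5 CDR3s found again in mice 1, 2 and 3. Where any Trbv gene was accepted, 14.9%, 12.7% and 17.9% of Trbv5 clonotypes of spleens 1, 2 and 3 were found in another spleen, against 10.9%, 9.37% and 12.4% of the others. How far cells with the same CDR3 but different V genes contribute to this was not tested.

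Kidney Trbv5 clonotypes were looked up in the spleens. In the mouse's own spleen 27 of 45, 37 of 72 and 14 of 31 were found in mice 1, 2 and 3, that is 60.0%, 51.4% and 45.2%. The exact 95% binomial intervals were 44.3 to 74.3%, 39.3 to 63.4% and 27.3 to 64.0%. In the spleens of other mice 0% to 12.5% were found, the lowest being 0 of 45 for kidney 1 in spleen 3 (upper limit 7.87%), so that each kidney matched its own spleen best. The mean was 52.2% ± 7.45 (SD, n = 3) against 6.72% for other mice (exact one-sided permutation test over the 6 assignments of spleens, p = 0.167, the smallest they can give). The other Trbv clonotypes were found in their own spleen at 47.0%, 50.7% and 43.2%, and the excess of Trbv5 was 12.97, 0.662 and 1.95 percentage points in mice 1, 2 and 3. Its mean of 5.19 rested on mouse 1, and without that mouse it was 1.31. Counted by kidney UMIs the sign turned in mice 2 and 3, with 61.6% against 66.3% and 40.9% against 54.4%, while mouse 1 gave 74.4% against 58.5%. No Trbv5 clonotype was shared between kidneys.

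Within Trbv5, the share joined to a gene of the Trbj1 cluster was set between the organs. This was 24 of 45, 30 of 72 and 14 of 31 kidney clonotypes (53.3%, 41.7% and 45.2%) against 32.8%, 34.2% and 33.5% in the spleens of mice 1, 2 and 3, with no overlap between organs. The remaining Trbv genes together gave 33.3%, 34.9% and 32.1% in kidney libraries, with 34.9%, 35.6% and 32.9% for spleen libraries. The difference did not pass correction. The log2 odds of Trbj1 were higher by 0.80 ± 0.23 in the kidney (SE, n = 3 against 3, unadjusted p = 0.00686, adjusted p = 0.0781, limma over 14 Trbv genes), with 0 of 14 genes called (0%) and 3 at an unadjusted p under 0.05. With the mouse as a block the adjusted p was 0.193, and without mouse 3 it was 0.652. Counted by UMIs the difference was 0.65 (adjusted p = 0.563). An exact two-sided permutation test of the shares, which ignores the pairing, gave p = 0.1, the smallest that 3 against 3 allow. After Benjamini-Hochberg adjustment over 7 junction measures it was 0.14. V loss, glutamine at position 5, Trbd1 (mean 39.1% against 31.2%) and aspartate or glutamate at position 6 gave the same p. These measures are linked and do not count as separate differences. Positions 5 and 6 depend on the V end kept, and Trbd2 joins only the Trbj2 cluster. For the Trbj1 share an exact sign-flip test by mouse pairs gave p = 0.25, the smallest for 3 pairs. The permutation test of Trbv5 minus the other Trbv clonotypes gave p = 0.1 (adjusted p = 0.233). Among the single Trbj1 genes, the kidney shares of Trbj1-4 (15.6%, 11.1% and 12.9%), Trbj1-5 (6.67%, 5.56% and 6.45%) and Trbj1-6 (8.89%, 4.17% and 6.45%) lay above those of all spleens, at 2 to 8 clonotypes per kidney. Those of Trbj1-1, Trbj1-2 and Trbj1-3 did not, and Trbj1-3 was joined to 0 of 31 clonotypes in kidney 3. In the Trbj2 cluster the organs also separated for 3 genes. The kidney shares of Trbj2-2 (4.44%, 2.78% and 0%), Trbj2-3 (4.44%, 2.78% and 9.68%) and Trbj2-7 (13.3%, 16.7% and 12.9%) lay below those of all spleens. Those of Trbj2-1, Trbj2-4 and Trbj2-5 overlapped with the spleens. Such separation was therefore common among the Trbj genes. These single genes were not tested.

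V trimming was compared in the same way. Kidney Trbv5 clonotypes had lost 1.24, 1.35 and 1.55 V bases in mice 1, 2 and 3, against 1.59, 1.56 and 1.56 in the spleens, and no V base was lost in 55.6%, 54.2% and 54.8%. The mean loss was below that of the spleen in 3 of 3 mice (exact two-sided permutation test, p = 0.1, adjusted p = 0.14). By mouse pairs the exact sign-flip test gave p = 0.25. The loss was also lower in the kidney in 3 of 3 mice for the other Trbv clonotypes (2.39, 2.42 and 2.36 against 2.51, 2.51 and 2.52). For Trbv5 minus the other Trbv clonotypes the permutation test gave p = 0.5 (adjusted p = 0.583). Read depth per molecule differed between the organs as given above. Among spleen Trbv5 clonotypes with at least 27 reads, V loss was 1.55, 1.45 and 1.55 bases and the Trbj1 share was 34.5%, 36.5% and 33.2%. Aspartate or glutamate at position 6 stood in 57.8%, 56.9% and 58.1% of kidney Trbv5 clonotypes, above all spleens (exact permutation test, p = 0.1, adjusted p = 0.14). By mouse pairs the exact sign-flip test gave p = 0.25. For Trbv5 minus the other Trbv clonotypes the permutation test gave p = 0.1 (adjusted p = 0.233). CDR3 length was 14.6, 14.6 and 14.4 amino acids in the kidneys (exact permutation test against the spleens, p = 0.5, exact sign-flip test, p = 0.5).

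**Figure D5:**
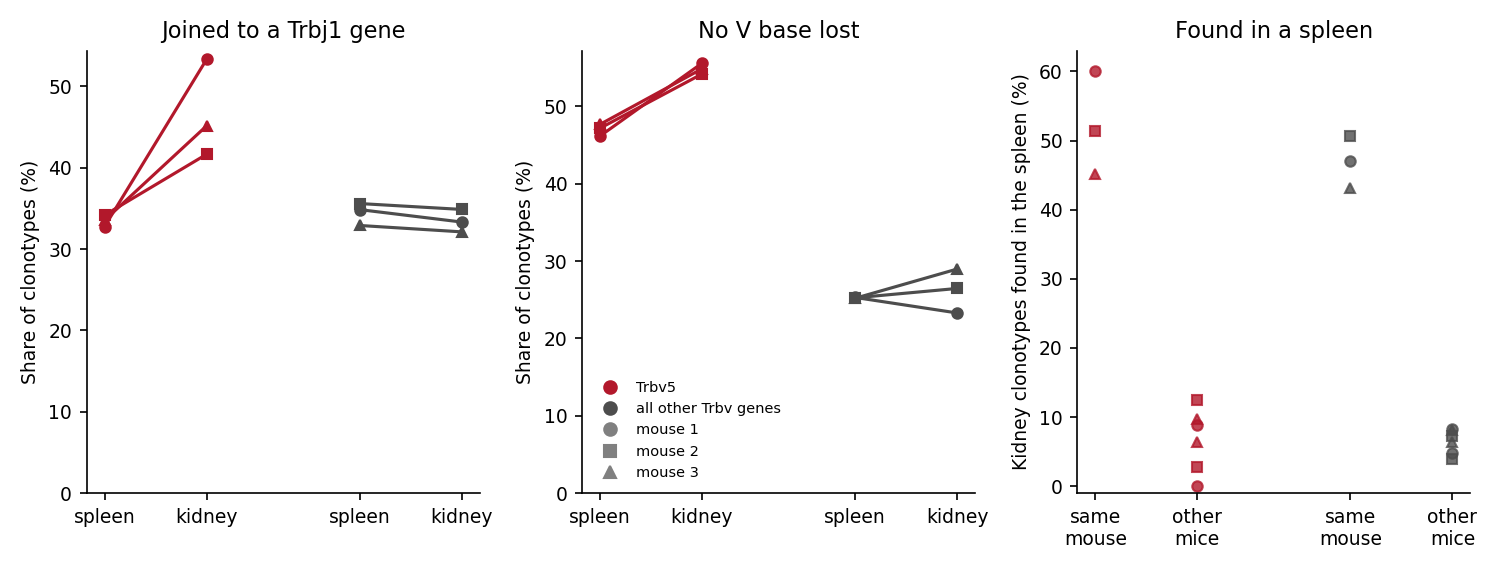
Share of clonotypes (y axes, %) joined to a Trbj1 gene (left) and with no V base lost (middle) in the spleen and the UUO kidney, with lines joining the organs of a mouse, and share of kidney clonotypes also seen in their own mouse's or other mice's spleens (right), for Trbv5 (red) and all other Trbv genes (grey). Symbols are mice, on the right those of the kidney. The Trbj1 share of Trbv5 lies between 32.8 and 34.2% in spleens and between 41.7 and 53.3% in kidneys, and the shares found are 45.2 to 60.0% in the same mouse.

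Trbv5 clonotypes were of about the same size as the others. Spleen Trbv5 clonotypes held 1.499, 1.64 and 1.27 UMIs on average and the others 1.45, 1.60 and 1.25, a difference of 0.035 ± 0.018 UMIs (SD, n = 3) that was present in 3 of 3 spleens. An exact sign-flip permutation test gave p = 0.25, which is the lowest value for 3 pairs. Among kidney clones the 5 largest Trbv5 clonotypes held 37.8%, 30.4% and 31.8% of the Trbv5 UMIs, and in the spleens 1.60%, 1.05% and 0.647%, but these shares depend on the number of clonotypes (31 to 72 in a kidney, 7083 to 13139 in a spleen) and were not compared. Non-coding clones made up 4.69%, 4.83% and 4.46% of the Trbv5 UMIs of the spleens and 4.87%, 4.73% and 4.62% of the others, with no common direction.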

How the data were processed

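TCR-β mRNA of CD4+ T cells was amplified by 5′ RACE with UMIs from 1 kidney and 1 spleen library per mouse. MiXCR was used by the authors to build clones, and the deposited UMI counts and read counts of the clones carry no normalization. The deposited fractions of UMIs and of reads served only to check these counts, and the deposited quality score of the CDR3 was not used. The build named in the submitters' processing notes is GRCm38/mm10, and names and positions were taken from RefSeq GRCm38.p6, where 24 of 24 Trbv genes matched a symbol.

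Coding clones were kept, and clones with the same CDR3 nucleotide sequence, first V gene and first J gene were joined into clonotypes. V bases lost and the bases between V and J were read from the reference points that MiXCR gives for each clone. Trbv usage was tested on UMI counts of 24 Trbv genes that reached 10 UMIs in the 6 libraries combined, and Trbj usage on distinct spleen clonotypes, by edgeR's quasi-likelihood test with library sizes only. Junction measures were tested by limma on the difference of each Trbv gene from all others within a spleen, for 22 genes with at least 100 clonotypes in each spleen, and the log2 odds of Trbj1 by limma for 14 genes with at least 10 clonotypes in each library, with 0.5 added to each count. P-values were adjusted by Benjamini-Hochberg over all genes of a fit, with a threshold of 0.05.

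Kidney and spleen of a mouse are paired by the labels, and over 24 Trbv genes their departures from the mean of each organ correlated at 0.284, 0.365 and 0.298 in mice 1, 2 and 3. The gene, the lists and the tests were chosen with earlier results of these data known. The clonotypes named are the 5 largest Trbv5 clonotypes of each spleen and the 3 largest of each kidney, of which those that bear on the text are printed, and the 5 in all spleens with the highest lowest share, with none named from a tie for the last place. Trbv genes were named as the neighbours in usage, those called, and the 3 most alike in J profile, measured by 0.5 times the sum of absolute differences of the Trbj shares. Trbv2, Trbv3, Trbv4, Trbv14 and Trbv17 were named after their values were seen, as were the comparison of Trbv5 with Trbv2, the interaction with the coding state, the fit of non-coding J genes, the V and J parts, the Trbj1 share between organs, and the settings with a minimum of 27 reads or any Trbv gene. Alternatives changed the unit, the normalization, the tool, the block, the filters, the clonotype definition and the mice included.

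Fits ran in R 4.3.3 (edgeR 4.0.16, limma 3.58.1, DESeq2 1.42.0). Tables and plots came from Python 3.11.15 (pandas 2.3.3, scipy 1.17.1, matplotlib 3.10.9). The edgeR fits were tested on simulated counts with counting error only, and the limma fit on random normal values. Differences between mice and the pairing of organs were not simulated, so that the p-values were not checked for these. The kidney libraries held 693 to 1248 coding UMIs, so that in the smallest a count of 0 allows a share of up to 0.433% (3 counts), for counting error only.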

Additional observations from a re-analysis of the deposited data

Results flagged for a closer look

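Coding and non-coding Trbv5 clonotypes of the spleens differed in how Trbv5 departs from the other Trbv genes in J use, by an interaction test in edgeR. The interaction was -0.87 log2 units for Trbj1-2, -0.47 for Trbj1-3 and -0.39 for Trbj2-4. Each value is the coding difference minus the non-coding difference. Trbj1-2 was called whichever mouse was left out, Trbj1-3 in none of these cases, and Trbj2-4 only without mouse 3.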

How the results depend on the processing

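With 3 mice, and kidneys of 31 to 72 Trbv5 clonotypes, single kidney shares have wide intervals. Non-coding clonotypes alone were a setting for V loss, but for Trbj1-2 a separate fit, where it was not called (-0.05, adjusted p = 0.884, edgeR). The CDR3 length, the V loss, the V part and the Trbj1-2 share of Trbv5 in the spleens kept their direction and their call under every setting run. Trbv5 in kidney against spleen was not called under any, and its log2 fold change was 0.0484 with DESeq2 and -0.25 to 0.000637 with a mouse left out, 0.000637 without mouse 3. With a replicate block it was -0.15 (adjusted p = 0.919), and with at least 27 reads per clonotype -0.33 (adjusted p = 0.317). DESeq2 moved the median of all Trbv genes by 0.17. The count of Trbv genes called was 2 with DESeq2, 2 with TMM, 4 on reads (all 4 lower in the kidney, without Trbv15), 0 on distinct clonotypes (3 at an unadjusted p under 0.05) and 0 with the replicate block (1 at an unadjusted p under 0.05), by edgeR where no tool is named. With a mouse left out it was 0 to 1, and 0 without mouse 1 or mouse 2 (2 at an unadjusted p under 0.05 each).

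Trbj2-2 and Trbj2-7, which were not called, changed sign. Trbj2-2 was -0.0274 with TMM, -0.0183 with DESeq2, -0.0537 on UMIs, -0.10 with at least 2 UMIs, -0.11 with at least 27 reads and -0.0393 to 0.0398 with a mouse left out. Trbj2-7 was -0.0119 with TMM, -0.0027 with DESeq2, -0.0215 with at least 2 UMIs and -0.0551 with at least 27 reads. Without the replicate block the count of Trbj genes called was 8, the same genes. Trbj1-1 was not called with TMM, with DESeq2 or without mouse 2, nor Trbj2-3 with at least 27 reads, where Trbj1-5 (0.35, adjusted p = 0.00678) and Trbj1-6 (0.27, adjusted p = 0.0132) were called and the count was 9.

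The difference in bases between V and J was 0.17 with at least 2 UMIs, 0.24 with at least 27 reads, -0.0691 in non-coding clonotypes and 0.17 to 0.28 with a mouse left out. The Trbv5 share of the spleens was 10.1% of reads. The sharing excess was 4.59 percentage points by amino acid CDR3, 4.27 with any Trbv gene and 1.27 to 1.68 with a mouse left out, where only 2 spleens remain to share. The causes of the other changes were not tested.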
